A study of Danio rerio with 8 samples.

Results

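The zebrafish miRNA chip carries probes for a set of miRNAs whose miRBase numbers were first given to fish sequences or to small groups of vertebrates that include fish. These are dre-miR-456, the numbers from dre-miR-458 to miR-464, those from dre-miR-722 to miR-740 and those from dre-miR-2184 to miR-2200, with any letter or arm suffix and without the star forms. The rule names numbers alone and uses no measured value, but it was set with earlier results of these data known. The rule found 40 of the 248 zebrafish miRNA probes. A few of the numbers are also known from chicken or frog, so the set is one of numbers rather than of strictly fish-only genes.

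Total RNA came from whole zebrafish embryos at 72 hpf (hours post fertilization). The study kept the wild-type AB strain and a Tg-(flk:GFP) reporter line, and the labels do not say which gave these embryos. In the MC-RR group, MC-RR (microcystin-RR, a cyclic heptapeptide toxin of cyanobacteria) had been injected into the yolk at an early cleavage stage, and the control embryos had received saline. There were 4 MC-RR arrays and 4 control arrays, each from a sample of its own hybridized in 1 dye. The series calls them biological replicates and gives neither clutches nor numbers of embryos. The comparison asks which miRNAs differ in abundance after the toxin.

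miRNAs are short RNAs that guide Argonaute proteins to messenger RNAs, mainly through pairing of the seed, bases 2 to 8 from the 5′ end. miRNAs with the same seed can bind many of the same messengers. Many conserved families act in muscle, nerve, blood or skin across vertebrates, whereas lineage-restricted miRNAs tend to be expressed at low levels or in few cells. In zebrafish, miR-722 is known for targeting rac2, a GTPase of neutrophil movement, and miR-462 and miR-731 form a fish cluster related to miR-191 and miR-425 that has been studied in antiviral responses. In a whole embryo, fewer cells of a type and less RNA per cell cannot be told apart.

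The sequences below are the targets given for the probes on the chip, with the seed in capitals. The first 4 are those of the members on the study's list of changed miRNAs.
dre-miR-726: uUCACUACuagcagaacucgg
dre-miR-730: uCCUCAUUgugcaugcugugugu
dre-miR-733: uGCGUUGGuuuagcucagugguu
dre-miR-735: cUCUCCCAccgcuaaacuugac
The next 3 share their seed with another probe on the chip. The seed of dre-miR-722 is that of dre-miR-129, the seed of dre-miR-2194 is that of dre-miR-155, and the seed of dre-miR-736 is that of a customer-defined probe for mouse miR-208.
dre-miR-722: uUUUUUGCagaaacguuucagauu
dre-miR-736: gUAAGACGaacaaaaaguuuu
dre-miR-2194: gUAAUGCUucgacugauuggug
Another 4 were chosen after their values were seen. dre-miR-724, dre-miR-725 and dre-miR-2189 stood apart on single arrays or replicate numbers, and dre-miR-2190 shared with dre-miR-738 the highest content of C and G among the members.
dre-miR-724: uUAAAGGGaauuugcgacuguu
dre-miR-725: uUCAGUCAuuguuucuaguagu
dre-miR-2189: uGAUUGUUuguaucagcugugu
dre-miR-2190: cGGCCCGUccggugcgcucggau
The 40 members had 40 distinct seeds, so none shared a seed with another member, and 4 shared one with another probe. The fourth was dre-miR-2192, with the worm probe cel-miR-86. No member came closer than 4 edits (bases changed, inserted or deleted) to any other sequence searched. That smallest distance was between dre-miR-736 and the mouse miR-208 probe. The searches for seeds and for close sequences covered the zebrafish, customer-defined and worm probes, and not the other control sequences. Cross-hybridization between near-identical sequences was not tested.

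The members were 20 to 24 bases long. Their C and G content ran from 19.0% in dre-miR-737 to 78.3% in dre-miR-738 and dre-miR-2190, with a median of 45.5%, against a median of 43.5% over the 208 other zebrafish probes. Of the 6 zebrafish probes with more than 65% C and G, 4 were members. These were dre-miR-738, dre-miR-2185, dre-miR-2190 and dre-miR-2198.

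RefSeq's gene table for assembly GRCz12tu named a locus for 38 of the 40 members, and dre-miR-2184 and dre-miR-2190 were not matched. As the deposited files name no genome build, positions were used only to find which genes lie beside or around a locus, without regard to strand. For 23 members the locus lay within the span of a protein-coding gene. An opsin gene lay at 4 of the loci. dre-miR-726 had opn1sw2 and opn1lw1, the blue and red cone opsins, as neighbours, dre-miR-729 had the ultraviolet cone opsin gene opn1sw1 beside it, and dre-miR-727 and dre-miR-728 both lay within tmtopsb, an opsin of the teleost multiple tissue type. dre-miR-462 and dre-miR-731 were each other's nearest gene. The locus of dre-miR-736 lay in myh7, a myosin heavy chain gene of the heart, as that of mammalian miR-208 lies in a cardiac myosin gene. dre-miR-2188 lay in ank1a, which encodes an ankyrin of the red cell membrane skeleton, and dre-miR-459 in runx1, a regulator of blood stem cells.

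Some loci carry the name of another kind of small RNA, or overlap one. RefSeq gives vtrna4, a vault RNA name, as a synonym of mir733, and lists the locus of dre-miR-735 under rny2, a Y RNA name. The locus of dre-miR-738 lay within the span of a gene for ribosomal RNA. Vault RNAs and Y RNAs are short transcripts of RNA polymerase III that bind the vault particle and the Ro protein. Before labelling, RNA was separated by size with a filter that also lets through RNAs several times longer than a miRNA. Whether the signals of these probes came from mature miRNAs or from longer transcripts was not tested.

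A member was counted as above the blanks on an array where the mean log2 intensity of its 10 spots was over the 95th percentile of that array's 206 blanks. The median intensity of the members was under this limit on every array but MC-RR replicate 3. On some arrays it was also far under the median blank. It was 51.2 against 91.9 on MC-RR replicate 4, 98.5 against 126 on control replicate 2 and 48.4 against 179 on control replicate 4. The limit was exceeded on at least 4 of the 8 arrays, the requirement for testing, by 16 of the 40 members (40%) and by 171 of the 208 other zebrafish probes (82.2%). None of the members exceeded it on all 8 arrays, against 65 of the other probes. On 7 arrays there were 6 members, dre-miR-456, dre-miR-458, dre-miR-735, dre-miR-738, dre-miR-2188 and dre-miR-2190. Each of them passed on all 4 MC-RR arrays and on control replicates 1 to 3. dre-miR-724, dre-miR-725 and dre-miR-730 passed on 6 arrays. dre-miR-726, dre-miR-727, dre-miR-733, dre-miR-734 and dre-miR-2191 passed on 5, and dre-miR-2184 and dre-miR-2185 on 4.

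The other 24 members passed on 2 arrays or fewer and were not tested. Those that passed on 2 arrays were dre-miR-723, dre-miR-728, dre-miR-2187 and dre-miR-2189, each on both replicate 3 arrays. Another 7 passed on MC-RR replicate 3 alone, namely dre-miR-460-5p, dre-miR-462, dre-miR-722, dre-miR-732, dre-miR-2192, dre-miR-2195 and dre-miR-2198. The 13 that passed on no array were dre-miR-459, dre-miR-460-3p, dre-miR-461, dre-miR-729, dre-miR-731, dre-miR-736, dre-miR-737, dre-miR-740, dre-miR-2186, dre-miR-2193, dre-miR-2194, dre-miR-2196 and dre-miR-2197. Both members of the pair dre-miR-462 and dre-miR-731 were thus among the dim ones, as were dre-miR-722 and dre-miR-736. Of the opsin-associated members, dre-miR-726 and dre-miR-727 were tested, and dre-miR-728 and dre-miR-729 were not. All 12 of the miRNAs listed as marks of brain, muscle, liver, skin, vessels, blood, sensory organs and the early embryo passed on at least 7 arrays each.

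The counts depended on how bright the blanks were. On the MC-RR arrays 15, 14, 27 and 8 members passed on replicates 1 to 4, and on the control arrays 16, 9, 19 and 0. The blank limit on control replicate 4 was 512 intensity units, against 72.7 to 152 on the other control arrays and 49.7 to 188 on the MC-RR arrays, and the count of 0 went with those bright blanks. A second limit, chosen after the data were seen, was the highest of 12 worm miRNA probes, cel-miR-90 left out. It is a lenient limit, under the median blank on every array but MC-RR replicate 3 and control replicate 1. On replicate 4, cel-miR-90 was at 2751 on the MC-RR and 643 on the control array, where the brightest members were at 514 and 451. Had it been kept, no member would have exceeded the limit on those arrays. With this limit the counts were 28, 22, 27 and 26 on the MC-RR arrays and 28, 23, 34 and 24 on the control arrays. It was exceeded on at least 4 arrays by 28 members (70%) and by 196 other zebrafish probes (94.2%), and on all 8 arrays by 17 members and by 165 other probes. Of the members, 4, dre-miR-461, dre-miR-2186, dre-miR-2193 and dre-miR-2194, exceeded neither on any array.

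**Figure D1:**
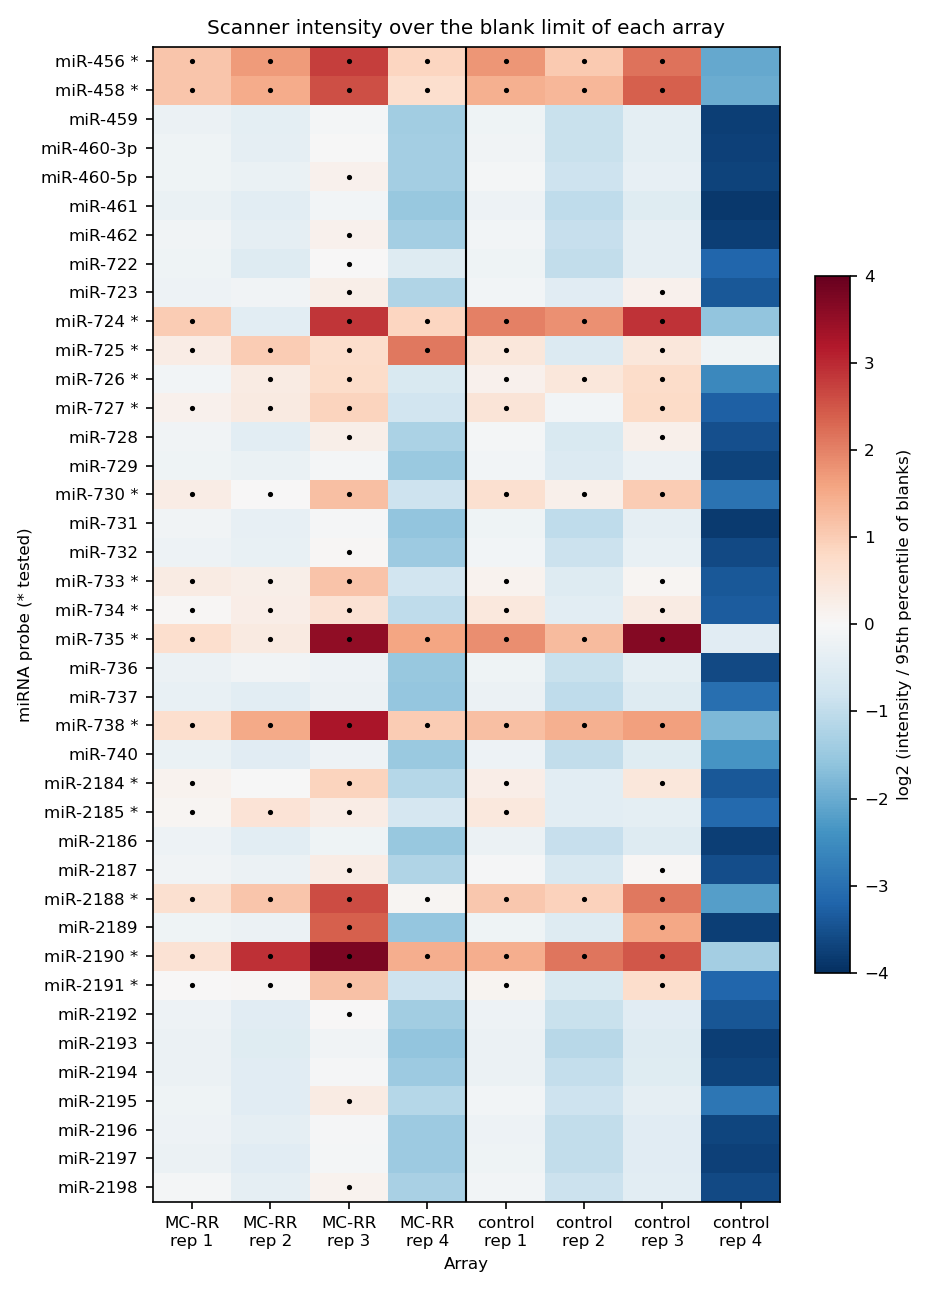
Log2 ratio of each member's scanner intensity to the blank limit of the same array, with members down the page by number, MC-RR arrays on the left and control arrays on the right. Dots mark values above the limit and stars mark the 16 tested members. Control replicate 4, with its blank limit of 512, has no dot.

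The tested members had a median C and G content of 47.8% and the untested of 41.9%. Over 65% C and G were 3 of the tested members and 1 of the untested. The paper's methods state that chemical changes to the probes evened out their melting temperatures. The deposited intensities are not further corrected for such differences between probes. Apart from the counts above the limits, levels of different probes were not compared.

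For the comparison of MC-RR with control, spot intensities were background-corrected, given an offset of 50, log2-transformed and averaged per probe, and the arrays were normalized by cyclic loess. On this scale a signal at the background lies near 6, which compresses the fold changes of dim members. The members above no blank limit had values between 5.91 and 7.07, and the tested members between 5.93 and 9.45. Over the 10 spots of a probe the median coefficient of variation among members was 6.61% within an array.

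Differences between MC-RR and control were small for most of the 16 tested members. The most negative log2 fold change (MC-RR minus control) was -0.79 and the most positive 0.40, with 9 above 0 and 7 below. Their median was 0.00, against -0.06 over all 187 tested miRNAs, and their median absolute value was 0.22, against 0.17. The median pooled SD between replicates was 0.24 for the members and 0.34 for all tested miRNAs. The compression of dim signals acts on these SDs too, and its share in the difference was not tested. In limma, 1 of the 16 members, dre-miR-733, had an unadjusted p under 0.05, where 8.56% of all tested miRNAs did, and 4.28% of them were higher with MC-RR. No member passed after Benjamini-Hochberg adjustment over all 187, where 0% of the tested miRNAs passed. The smallest adjusted p of a member was 0.427. One member, again dre-miR-733, had MC-RR and control arrays that did not overlap, a share of 1 in 16, against 3.21% of all tested miRNAs.

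The sample titles number the replicates of each group 1 to 4, the series description calls the embryos paired, and arrays with the same number deviated together. Blocked by replicate number, 3 of the 16 members were under 0.05 unadjusted, dre-miR-733 higher and dre-miR-726 and dre-miR-735 lower. Over all tested miRNAs the share under this fit was 16%, with 5.88% higher and 10.2% lower. After adjustment there were 0 members with the block, and the smallest adjusted p was 0.170, for dre-miR-735. The SE (standard error of the log2 fold change) was smaller with the block for 14 of the 16 members. The MC-RR array differed from its control array in the same direction in all 4 pairs for 5 members, dre-miR-726, dre-miR-730, dre-miR-733, dre-miR-735 and dre-miR-2191, which is 31.2% of the tested members against 33.7% of all tested miRNAs. As 1 member is 6.25% of the 16, each of these shares differed from that of all tested miRNAs by less than 1 member.

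**Figure D2:**
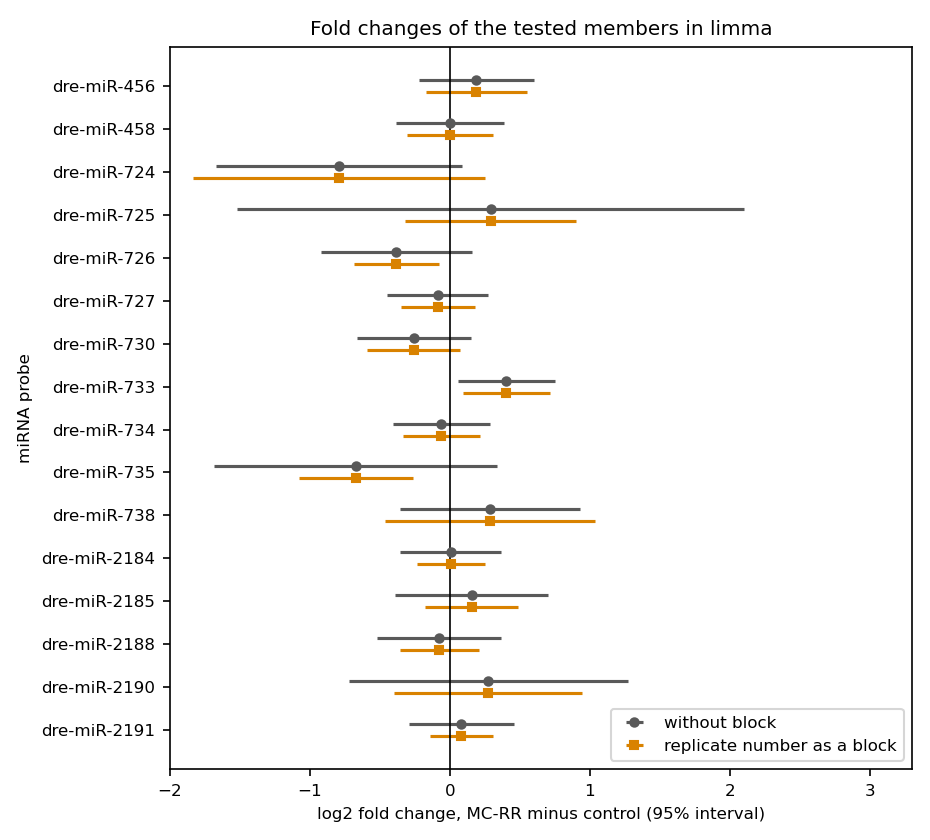
Log2 fold change (MC-RR minus control) for the 16 tested members, with 95% confidence intervals from limma without a block (circles) and blocked by replicate number (squares). Only dre-miR-733 has an interval clear of 0 in both fits, and those of dre-miR-726 and dre-miR-735 clear 0 with the block.

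dre-miR-733, whose locus carries a vault RNA name, was the member with higher signals on all MC-RR arrays. Its normalized log2 signal was 7.05, 6.75, 6.95 and 6.61 on MC-RR replicates 1 to 4, and 6.53, 6.55, 6.30 and 6.36 on control replicates 1 to 4. Every MC-RR array was above every control array, by at least the small distance between 6.61 on MC-RR replicate 4 and 6.55 on control replicate 2. The mean was 6.84 ± 0.20 on the MC-RR arrays and 6.44 ± 0.13 on the control arrays (SD, n = 4 each). This was a log2 fold change of 0.40 ± 0.15 (SE), or 1.32-fold, and the limma p was 0.0274 (adjusted p = 0.427). Under the replicate block the SE was 0.12 and the p 0.0207 (adjusted p = 0.194). The two-sided exact permutation test, which here and below ignored the replicate numbers, gave p = 0.0286, the smallest that 4 arrays against 4 allow. Groups that do not overlap always give this value, so it adds nothing to the lack of overlap. The probe was dim, at 66.0 to 236 intensity units on the MC-RR arrays and 48.5 to 107 on the control arrays, and it was above the blanks on 3 MC-RR and 2 control arrays. It exceeded the worm-probe limit on all 8 arrays. It lay under the median blank on MC-RR replicate 4, at 70.3 against 91.9. The same held on control replicate 2, at 107 against 126, and on control replicate 4, at 48.5 against 179.

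In the deposited background-subtracted and normalized table the difference at dre-miR-733 was larger. Its values there were 64.2, 75.8, 53.8 and 29.7 on the MC-RR arrays and 26.6, 25.7, 19.3 and 15.0 on the control arrays. Again the groups did not overlap. After adding 1 and taking log2, the fold change was 1.28 ± 0.35 (SE), and the limma p was 0.00535 (adjusted p = 0.371). With the replicate block on this table, a fit added after the data were seen, the SE was 0.18 and limma's adjusted p was 0.0388. In that fit 1 of the 16 members and 4 of the 187 tested miRNAs (2.14%) passed after adjustment. With an offset of 16 the fold change on the scanner values was 0.61, and with plain subtraction of the blanks 0.95. The call was lost with median scaling, with no normalization between arrays, with plain subtraction of the blanks, and without MC-RR replicate 1, MC-RR replicate 3, control replicate 3 or control replicate 4, where the limma p lay between 0.0512 and 0.352. The sign was the same in all of these. Plain subtraction took off the median blank of each array and set spots left under 1 to 1. For probes under the median blank on some arrays, such as dre-miR-726, dre-miR-730 and dre-miR-733, the fold changes with it rest partly on that floor.

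dre-miR-726, the neighbour of the blue and red cone opsin genes, was lower on the MC-RR array of every pair. Its normalized log2 signal was 6.32, 6.88, 6.53 and 6.73 on MC-RR replicates 1 to 4, and 6.57, 7.56, 6.85 and 7.01 on control replicates 1 to 4. The groups overlapped, and replicate 2 was the highest array of both. The mean was 6.62 ± 0.24 on the MC-RR arrays and 7.0 ± 0.42 on the control arrays (SD, n = 4 each). On the log2 scale it changed by -0.38 ± 0.23 (SE; limma p = 0.141, adjusted p = 0.774; two-sided exact permutation p = 0.171). Under the replicate block the SE was 0.12 and the limma p 0.0228 (adjusted p = 0.194). The probe was dim, at 70.6 to 174 intensity units on the MC-RR arrays and 86.3 to 210 on the control arrays. It was above the blanks on 2 MC-RR and 3 control arrays, and above the worm-probe limit on all 8. On both replicate 4 arrays it lay under the median blank, at 78.4 against 91.9 on MC-RR and 86.3 against 179 on control. Without both replicate 2 arrays the blocked limma fit gave -0.28, and its p was 0.0557. Without both replicate 4 arrays it gave -0.42, and its p was 0.0544. Without a block, the difference was -0.20 when control replicate 2 alone was left out, -0.23 with median scaling, -0.22 with quantile normalization and -2.29 with plain subtraction of the blanks, and it passed the threshold in none of these. dre-miR-727, in the opsin gene tmtopsb, had 6.80, 6.87, 6.69 and 6.60 on the MC-RR arrays and 6.95, 6.98, 6.89 and 6.49 on the control arrays. The difference of its means was -0.09 ± 0.16 (SE), and its sign was positive with median scaling or quantile normalization (0.07 each) and in the deposited table (0.16). It was -0.14 with no normalization and -0.98 with plain subtraction of the blanks.

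dre-miR-735, whose locus carries a Y RNA name, was also lower on the MC-RR array of every pair. Its normalized log2 signal was 7.57, 7.15, 8.83 and 8.75 on MC-RR replicates 1 to 4, and 8.46, 8.18, 9.28 and 9.08 on control replicates 1 to 4. Replicates 3 and 4 were high and replicates 1 and 2 low in both groups, so that the groups overlapped although all pairs went one way. The mean was 8.08 ± 0.84 on the MC-RR arrays and 8.75 ± 0.52 on the control arrays (SD, n = 4 each). The difference was -0.67 ± 0.44 (SE), a fold of 0.628 (limma p = 0.164, adjusted p = 0.774; two-sided exact permutation p = 0.257). Under the replicate block the SE was 0.16 and the p was 0.00816 (adjusted p = 0.170). The pair differences were -0.89, -1.03, -0.45 and -0.33. Without both replicate 2 arrays, where the MC-RR array stood lowest, the blocked difference was -0.57, and its limma p was 0.00888. Without the block, the value rested on that array in part. It was -0.39 when MC-RR replicate 2 alone was left out (unadjusted limma p of 0.357), and between -0.91 and -0.39 over all arrays left out in turn. Plain subtraction of the blanks gave -1.58. On MC-RR replicate 2 the scanner intensity, before normalization, was 71.1, with its 10 spots between 57.9 and 81.2. It was 297 to 579 on the other MC-RR arrays and 316 to 921 on the control arrays. MC-RR replicate 2 was also dim over all zebrafish probes. Their median intensity there was 106, against 232 to 383 on the other MC-RR arrays and 190 to 374 on the control arrays. After normalization MC-RR replicates 1 and 2 were closer, at 7.57 and 7.15.

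dre-miR-730 was lower on the MC-RR array of every pair as well. Its normalized log2 signal was 7.03, 6.66, 6.92 and 6.55 on MC-RR replicates 1 to 4, and 7.11, 7.28, 7.07 and 6.73 on control replicates 1 to 4. The pair differences were -0.07, -0.62, -0.16 and -0.18 for replicates 1 to 4, and the groups overlapped. The mean was 6.79 ± 0.22 on the MC-RR arrays and 7.05 ± 0.23 on the control arrays (SD, n = 4 each). Their difference was -0.26 ± 0.18 (SE; limma p = 0.184, adjusted p = 0.817; two-sided exact permutation p = 0.143), and with the replicate block the limma p was 0.104 (adjusted p = 0.377). The size of the difference depended on the processing, at -0.10 with median scaling, -0.15 with quantile normalization and -1.84 with plain subtraction of the blanks. It was -0.17 without MC-RR replicate 4. The probe was above the blanks on 3 MC-RR and 3 control arrays, and above the worm-probe limit on all 8. On both replicate 4 arrays its intensity was under the median blank, at 67.0 against 91.9 on MC-RR and 65.9 against 179 on control. dre-miR-726, dre-miR-730, dre-miR-733 and dre-miR-735 are on the study's list of changed miRNAs. That list was chosen on these arrays, so their directions here are not independent evidence.

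**Figure D3:**
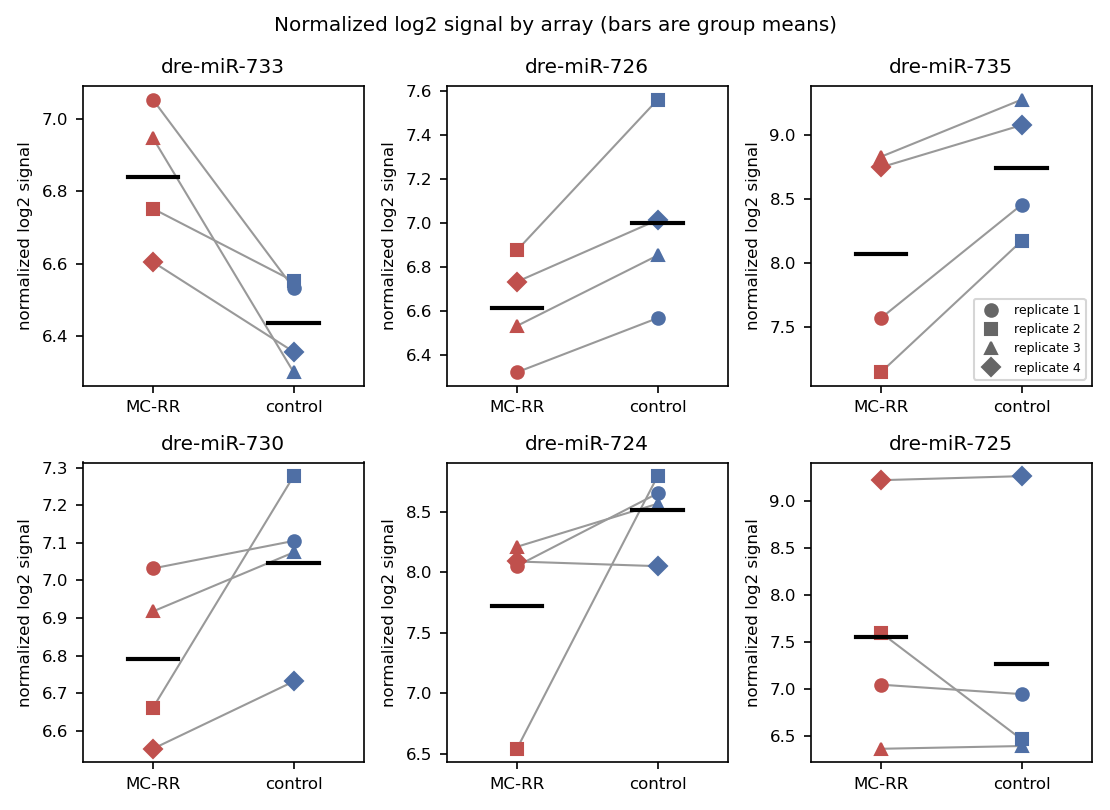
Normalized log2 signal of 6 members on each array, MC-RR on the left and control on the right of each panel, with lines joining arrays of the same replicate number, marker shapes for the number and black bars for group means. Axes differ between panels and do not start at 0. All 4 lines run down from MC-RR to control for dre-miR-733 and up for dre-miR-726, dre-miR-730 and dre-miR-735, and both replicate 4 arrays of dre-miR-725 lie above 9.

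dre-miR-724, in the copine gene cpne5b, had the most negative log2 fold change of the tested members, and its size rested largely on 1 array. Its normalized log2 signal was 8.05, 6.54, 8.21 and 8.09 on MC-RR replicates 1 to 4, and 8.65, 8.79, 8.57 and 8.05 on control replicates 1 to 4. That fold change was -0.79 ± 0.38 (SE; limma p = 0.0716, adjusted p = 0.737; two-sided exact permutation p = 0.114). Without MC-RR replicate 2 it was -0.40. On the deposited table, with all arrays, it was -1.67, and with plain subtraction of the blanks -1.79. The pair difference was -2.25 for replicate 2, against -0.60, -0.36 and 0.04 for the others. On MC-RR replicate 2 its 10 spots lay between 37.9 and 45.0 intensity units, against a worm-probe limit of 44.7, while the lowest spot on any other array was 127. The probe was therefore at the worm-probe background on that array alone.

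The same held there for 5 other zebrafish probes. dre-miR-135c, dre-miR-140, dre-miR-30a, dre-miR-454a, dre-miR-454b and dre-miR-724 were within the worm-probe limit on MC-RR replicate 2 and above 2 times that limit on all 7 other arrays. No probe had this pattern on any other array. Whether these 6 signals were lost in the sample or on the chip was not tested.

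dre-miR-725 differed between replicate numbers far more than between groups. Its normalized log2 signal was 7.05, 7.60, 6.37 and 9.22 on MC-RR replicates 1 to 4, and 6.95, 6.47, 6.39 and 9.26 on control replicates 1 to 4. The replicate 4 arrays were the 2 highest, and all others lay between 6.37 and 7.60. In intensity units they were 514 on the MC-RR and 451 on the control array, against 80.6 to 230 on the other MC-RR arrays and 98.7 to 119 on the other control arrays. Between the groups it differed by 0.29, with an SE of 0.79 without and 0.24 with the replicate block. The limma p was 0.722 without the block and 0.276 with it. The replicate 4 arrays were also those on which the worm probe cel-miR-90 was bright, at 2751 on the MC-RR and 643 on the control array, against 42.2 to 174 on the other MC-RR arrays and 57.8 to 89.8 on the other control arrays. Its part in the dre-miR-725 signal was not tested.

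dre-miR-2189, not tested for lack of arrays above the blanks, behaved in the same way with replicate 3. Its intensities were 168, 47.8, 262 and 41.4 on MC-RR replicates 1 to 4, and 77.8, 107, 212 and 37.4 on control replicates 1 to 4. Only on the replicate 3 arrays did it exceed the blank limit. The lowest of its 10 spots was 238 on the MC-RR and 191 on the control array of that number, so that the signal was not carried by single spots. Both dre-miR-725 and dre-miR-2189 thus marked a replicate number shared by an MC-RR and a control sample. They were not the only ones. The untested dre-miR-722 was highest on the replicate 4 arrays, at a normalized log2 signal of 6.81 on MC-RR and 6.43 on control. It was under the blank limit on both, and its other arrays lay between 6.05 and 6.15.

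**Figure D4:**
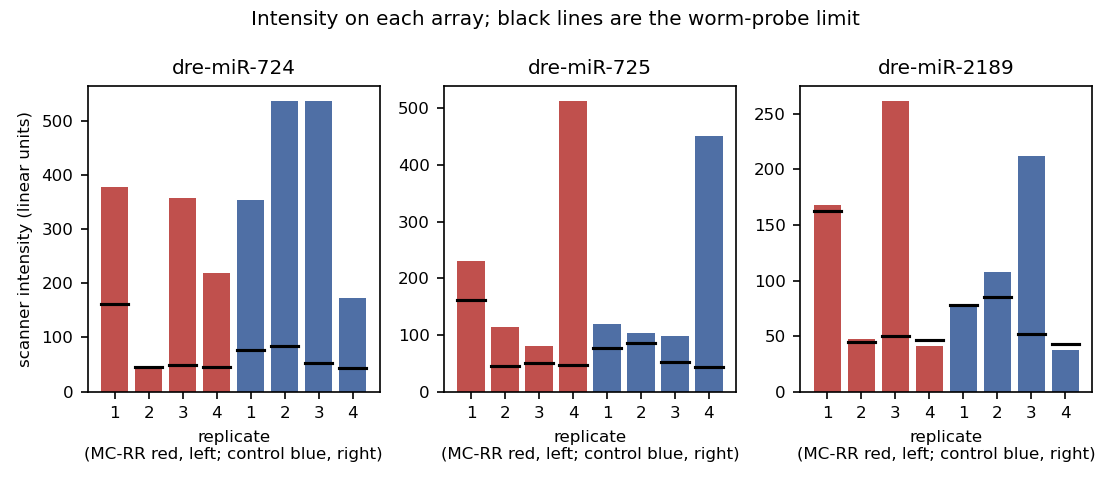
Scanner intensity of dre-miR-724, dre-miR-725 and dre-miR-2189 on each array in linear units from 0, MC-RR arrays in red on the left and control arrays in blue on the right, with a black line at the worm-probe limit of each array. dre-miR-724 is at the limit on MC-RR replicate 2 alone, and dre-miR-725 and dre-miR-2189 stand out on both arrays of replicate 4 and of replicate 3.

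The other 10 tested members had log2 fold changes between -0.09 and 0.29 with SEs between 0.15 and 0.43, and their smallest limma p was 0.319 without and 0.234 with the replicate block. dre-miR-738 and dre-miR-2190, both rich in C and G, had the widest intervals among them, and their arrays, like those of dre-miR-727, were chosen for display after their values were seen. dre-miR-2190 had 7.45, 9.45, 9.02 and 8.65 on MC-RR replicates 1 to 4, and 8.04, 9.05, 8.10 and 8.28 on control replicates 1 to 4. Between the group means the difference was 0.28, with a 95% interval of -0.72 to 1.27. Leaving out MC-RR replicate 2 brought it to -0.0068, and leaving out MC-RR replicate 1 to 0.67. dre-miR-738, at the ribosomal RNA locus, had 7.62, 8.13, 8.63 and 8.22 on the MC-RR arrays and 7.81, 8.42, 7.37 and 7.87 on the control arrays. Its means differed by 0.29, with a 95% interval of -0.36 to 0.93, and the pair difference of replicate 3 was 1.26, against -0.19, -0.29 and 0.36. The difference was 0.12 without MC-RR replicate 3 and 0.13 without control replicate 3. It was 0.47 without MC-RR replicate 1 and also without control replicate 2. dre-miR-2185, whose 3 RefSeq loci lie within protein-coding genes of which 2 are pim-related kinases, had means of 6.64 ± 0.30 on the MC-RR arrays and 6.48 ± 0.39 on the control arrays (SD, n = 4 each).

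The remaining 6 had similar means in both groups on this scale. On the deposited table their log2 fold changes were larger, from 0.14 for dre-miR-2188 to 0.50 for dre-miR-2191. None of them had an unadjusted limma p under 0.05 there. dre-miR-456, in ttc27, averaged 8.17 ± 0.09 on the MC-RR arrays and 7.98 ± 0.31 on the control arrays. dre-miR-458, in the serotonin receptor gene htr4, averaged 8.03 ± 0.13 on the MC-RR arrays and 8.03 ± 0.26 on the control arrays, with a 95% interval of the log2 fold change of -0.38 to 0.39. dre-miR-734, in the ephrin receptor gene epha6, averaged 6.55 ± 0.15 on the MC-RR arrays and 6.61 ± 0.18 on the control arrays. dre-miR-2184 averaged 6.59 ± 0.21 on the MC-RR arrays and 6.58 ± 0.15 on the control arrays. dre-miR-2188, in the erythroid ankyrin gene ank1a, averaged 7.67 ± 0.29 on the MC-RR arrays and 7.75 ± 0.23 on the control arrays, with a 95% interval of the log2 fold change of -0.52 to 0.37. dre-miR-2191 averaged 6.66 ± 0.20 on the MC-RR arrays and 6.58 ± 0.19 on the control arrays, and it was higher on the MC-RR array of every pair, by 0.05 to 0.13. All of these SDs are over 4 arrays per group.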

How the data were processed

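Whole zebrafish embryos at 72 hpf gave 4 MC-RR and 4 control samples, each hybridized to 1 array in 1 dye by the authors' service provider. The scanner output the authors deposited gives the linear mean intensity of each spot with no background subtraction or normalization. The normalized table the authors deposited gives 1 background-subtracted, LOWESS-normalized intensity per probe and served as an alternative.

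The scanner intensities were processed in R 4.3.3 with limma 3.58.1. Background was modelled with normexp over all spots, with 50 added as an offset. Log2 values were averaged over the 10 spots of a probe, and cyclic loess over the 248 zebrafish probes normalized the arrays. Probes above the 95th percentile of the blanks on at least 4 of 8 arrays were tested with lmFit and eBayes, two-sided, with Benjamini-Hochberg adjustment over all 187. The methods name a t-test and no pairing, so the fit without a block is the main one. The replicate number was a block in an alternative. Deviations from the group means correlated between arrays of the same number at 0.58, 0.29, 0.53 and 0.78 for replicates 1 to 4 over 187 miRNAs, and the series description calls the embryos paired.

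The members and lists were chosen with earlier results of these data known. Values on each array are given for members with an unadjusted limma p under 0.05 with or without the block, with groups that do not overlap, or on the study's list, and for others where the text says so. The worm-probe limit, the block on the deposited table and the block without pair 2 or 4 were added after the data were seen. The number of arrays limits the precision.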

Additional observations from a re-analysis of the deposited data

Results flagged for a closer look

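Of 32 groups of 4 arrays screened among the tested members, 4 held an array that stood apart from the other 3 by Dixon's criterion, which chance meets in about 1 group in 20. dre-miR-724 was lowest on MC-RR replicate 2, at a normalized log2 signal of 6.54 against 8.05 to 8.21 on the other MC-RR arrays. dre-miR-2184 was lowest on control replicate 4, at 6.36 against 6.64 to 6.67 on the other control arrays. dre-miR-2191 was highest on replicate 3 in both groups, at 6.96 on the MC-RR array against 6.54 to 6.59 on the others, and at 6.87 on the control array against 6.46 to 6.51 on the others. The causes were not tested.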

How the results depend on the processing

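The number of members above the limit on at least 4 arrays was 16 with the blanks as the limit and 28 with the worm probes. The number of members with an unadjusted limma p under 0.05, 1 in the reported fit, was 0 with median scaling, with no normalization and with plain background subtraction, 3 with the replicate block, 3 with that block on the deposited table, 2 with the block without both replicate 2 arrays and 2 without both replicate 4 arrays. Leaving out 1 array gave 0 to 1. Over all 187 tested miRNAs the number, 16 as reported, was 11 with median scaling, 3 with no normalization and 10 with plain background subtraction. It was 30 with the replicate block and 30 with that block on the deposited table. With the block it was 42 without both replicate 2 arrays and 21 without both replicate 4 arrays. Leaving out 1 array without a block gave 7 to 18. The log2 fold change of dre-miR-725 lay between -0.26 and 0.93 with 1 array left out and changed sign without control replicate 3 or MC-RR replicate 4, and it was -0.0024 with the block without both replicate 2 arrays. The cause of these changes was not tested. The median log2 fold change of the members was 0.00 as reported, 0.14 with median scaling or quantile normalization, -0.07 with no normalization and 0.19 on the deposited table. The median over all tested miRNAs was -0.06 with cyclic loess, 0.10 with median scaling and -0.11 with no normalization. Relative to it, dre-miR-733 stood at 0.46 and dre-miR-735 at -0.61 with cyclic loess. They stood at 0.47 and -0.70 both with median scaling and with no normalization. Those 2 settings must match here, as median scaling shifts all probes of an array by the same amount. On the deposited table, relative to its median of 0.06, they stood at 1.22 and -0.89. Requiring all 8 arrays above the blanks left 0 members to test. The dim signals of most members and 4 arrays per group limit what can be seen, and a p that misses the threshold does not show that levels were alike.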
